A study of Mus musculus with 15 samples.

Results

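The 39 protein-coding genes of the mouse Hoxa, Hoxb, Hoxc and Hoxd clusters were examined for H3K4me3 in the amygdala of WT mice. Hox genes were taken from the GENCODE M21 annotation by symbol, which gave 39 of 21938 protein-coding genes, and for each gene the highest-scoring H3K4me3 summit within 1 kb of any of its transcription start sites (TSSs) was looked up. A summit is the single base at which a called peak was strongest, and its score was read as the negative log10 of the q-value, so that a higher score stands for a more significant enrichment over input. The study profiled H3K4me3 in the amygdala of adult male F1 mice of the 129xB6 cross (fathers heterozygous for Kmt2a, mothers heterozygous for Kdm5c) that were WT, Kmt2a-HET, Kdm5c-KO or Kmt2a-Kdm5c double mutant, with 11 H3K4me3 samples and 4 inputs. The values below come from the 2 WT samples, for which the authors deposited 1 summit list. The list gives no value for either mouse alone, so no spread between mice and no test can be given, and genes of 1 list are not replicates. The other genotypes were not analysed here.

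Hox genes encode homeodomain transcription factors that give cells their position along the head-to-tail axis of the embryo. They lie in 4 clusters, and genes of the same paralog group occupy the same relative place in each. In the embryo the low-numbered genes at the 3′ end of a cluster are switched on earlier and further forward, up to the hindbrain, and the high-numbered genes later and further back, while the forebrain, of which the amygdala is a part, forms in front of the Hox domains. H3K4me3 is a histone mark found at the start sites of active genes and of many genes with CpG-rich promoters. KMT2A, one of the enzymes that write it, is known for maintaining Hox expression in the embryo and in blood cells, and Polycomb complexes keep Hox genes silent where they are not used.

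Of the 39 Hox genes, 4 had a promoter summit, or 10.3% (95% Wilson interval 4.1 to 23.6%, counting error only). Over all protein-coding genes the share was 64.7%, or 14197 of 21938. Marked genes described here are Hoxa4 and Hoxa7 in the Hoxa cluster and Hoxd1 in the Hoxd cluster. The other 35 genes had no summit within 1 kb of a TSS. These were 8 Hoxa genes, among them Hoxa5, Hoxa9, Hoxa10, Hoxa11 and Hoxa13, the 10 Hoxb genes (Hoxb1 to Hoxb9 and Hoxb13), the 9 Hoxc genes (Hoxc4, Hoxc5, Hoxc6 and Hoxc8 to Hoxc13), and Hoxd3, Hoxd4 and Hoxd8 to Hoxd13. The amygdala is a mixture of cell types, and fewer cells carrying a mark cannot be told apart from less of the mark in each cell.

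Sequences of marked and unmarked promoters are shown with every CG in capitals, so that CpG-rich examples of both can be read. For Hoxa4, Hoxa7 and Hoxd1, 200 bases of the GRCm38 (mm10) genome are given on the sense strand of the Hox gene. The window of Hoxa4 is centred on the summit. The summits of Hoxa7 and Hoxd1 lie inside transcribed leader sequence, and the 200 bases just before the outermost TSS are given instead.
Hoxa4, chr6:52192029-52192228, minus strand: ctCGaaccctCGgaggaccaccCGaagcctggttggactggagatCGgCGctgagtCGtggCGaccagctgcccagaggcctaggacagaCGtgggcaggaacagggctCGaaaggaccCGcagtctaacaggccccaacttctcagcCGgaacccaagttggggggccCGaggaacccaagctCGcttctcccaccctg
Hoxa7, chr6:52221855-52222054, minus strand: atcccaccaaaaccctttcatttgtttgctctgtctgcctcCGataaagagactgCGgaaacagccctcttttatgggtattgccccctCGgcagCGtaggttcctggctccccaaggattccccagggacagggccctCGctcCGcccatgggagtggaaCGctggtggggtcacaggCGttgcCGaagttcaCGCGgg
Hoxd1, chr2:74762780-74762979, plus strand: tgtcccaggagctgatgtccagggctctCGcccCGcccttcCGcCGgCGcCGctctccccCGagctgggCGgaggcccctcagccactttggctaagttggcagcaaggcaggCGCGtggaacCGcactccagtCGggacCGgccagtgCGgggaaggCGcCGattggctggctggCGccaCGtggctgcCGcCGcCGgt
These windows held 13 CG for Hoxa4, 11 for Hoxa7 and 21 for Hoxd1. The unmarked genes were chosen for their CpG content. The unmarked gene with the highest promoter CpG content of the Hoxa, Hoxc and Hoxd clusters is each given by the 200 bases before its TSS.
Hoxa5, chr6:52204588-52204787, minus strand: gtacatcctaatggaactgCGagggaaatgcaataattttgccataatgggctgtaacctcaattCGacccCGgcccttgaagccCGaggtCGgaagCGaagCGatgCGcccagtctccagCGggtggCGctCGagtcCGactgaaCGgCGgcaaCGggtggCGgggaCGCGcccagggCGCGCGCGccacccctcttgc
Hoxc12, chr15:102936557-102936756, plus strand: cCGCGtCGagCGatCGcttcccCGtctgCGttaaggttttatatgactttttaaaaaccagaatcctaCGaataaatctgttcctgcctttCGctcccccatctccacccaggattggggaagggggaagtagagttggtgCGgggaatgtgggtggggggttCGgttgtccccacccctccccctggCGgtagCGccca
Hoxd13, chr2:74668110-74668309, plus strand: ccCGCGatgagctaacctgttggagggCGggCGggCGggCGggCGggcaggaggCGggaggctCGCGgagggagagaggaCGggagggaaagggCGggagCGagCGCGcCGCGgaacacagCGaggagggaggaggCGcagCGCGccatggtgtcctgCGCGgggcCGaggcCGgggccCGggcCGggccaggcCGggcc
The unmarked windows held 22 CG for Hoxa5, 13 for Hoxc12 and 28 for Hoxd13. These counts follow from the choice of genes, and over all Hox genes the unmarked promoters had the lower median CpG content, as given with the CpG values of all Hox genes.

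Hoxa7, which acts in patterning of the trunk, had the highest score of the family. Hoxa7 (ENSMUSG00000038236) lies on the minus strand of chromosome 6 at 52214491 to 52221854, and its summit at 52221595 scored 67.56. The summit lay in the UTR of the gene, 259 bp downstream of the outermost of its 5 annotated TSSs. The other Hoxa7 TSSs lie inside the gene, and the summit was therefore placed at the start of the longest transcripts.

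Hoxa4, a gene of the anterior trunk, had a summit of score 21.19 at 52192128. Hoxa4 (ENSMUSG00000000942, chr6:52189671-52191753, minus strand) starts 375 bp downstream of this summit. The position is also covered by introns of Hoxa3, of the protein-coding gene Gm28308 and of the antisense RNA Hoxaas3, but the closest TSS was that of Hoxa4.

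Hoxd1 was the marked gene with the lowest score. Hoxd1 (ENSMUSG00000042448) lies on the plus strand of chromosome 2 at 74762980 to 74765142. Its summit at 74763098 scored 11.47 and lay in the UTR, 118 bp downstream of the TSS. The divergent long noncoding RNA Haglr starts at the same promoter, and the summit lay 202 bp upstream of its TSS. Its paralog Hoxb1 had no summit nearer than 98.45 kb.

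The marked Hox promoters scored low among marked promoters. Over the 4 genes the median best score was 42.9, against 194.6 over the 14197 protein-coding genes with a promoter summit, whose quartiles were 129.8 and 230.2. With a window of 3 kb, which adds Hoxc6, the Hox median was 21.2. The score of Hoxa7 exceeded 14.37% of the best scores of marked genes. Hoxa4 exceeded 6.28% of them and Hoxd1 3.73%. Read the other way, 12156 marked genes, or 85.6%, had a best score above that of Hoxa7. The 4 scores also lay below the median of the whole summit list, 102.3. Low scores were not particular to the Hox genes. Marked developmental homeobox and Pax genes outside the clusters had a median of 22.0. The 2 marked ParaHox and Evx genes had one of 16.7, and marked forebrain homeobox genes one of 88.7.

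**Figure D1:**
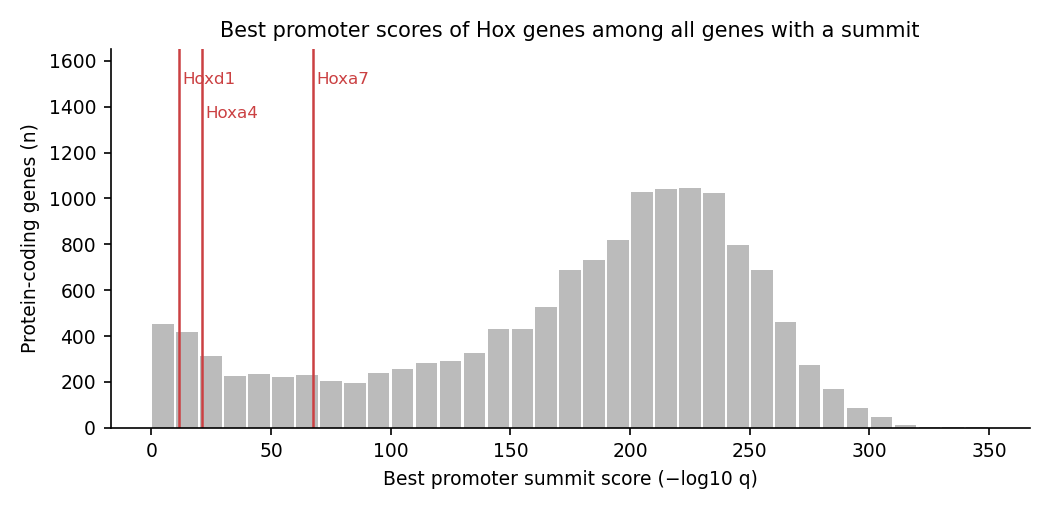
Distribution of the best promoter score of the 14197 protein-coding genes with a summit (x axis, −log10 q in steps of 10; y axis, number of genes), with a red line at the scores of Hoxd1, Hoxa4 and Hoxa7. Hoxd1 and Hoxa4 fall in the low tail, and Hoxa7 falls below the main group of genes, whose lower quartile is 129.8.

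Just outside the 1 kb limit lay Hoxc6, a gene of thoracic patterning. Its nearest summit, at chr15:102999460-102999460 with a score of 9.62, was 1069 bp upstream of an internal TSS of Hoxc6 at 103000529, in introns of Hoxc5 and Hoxc6. Hoxc6 was the single unmarked Hox gene with a summit within 3 kb. Inside the limit, the best summit farthest from its TSS was that of Hoxa4, at 375 bp.

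The marked genes lay in the Hoxa and Hoxd clusters. Hoxa held 3 of its 11 genes with a summit, or 27.3% (interval 9.7 to 56.6%), and Hoxd 1 of 9, or 11.1% (2.0 to 43.5%). Hoxb held 0 of 10 and Hoxc 0 of 9. The intervals of the 4 clusters overlap, with upper limits of 27.8% for Hoxb and 29.9% for Hoxc. By position along the clusters, 2 of the 8 genes of paralog groups 1 to 3 were marked, 2 of the 15 genes of groups 4 to 8 and 0 of the 16 genes of groups 9 to 13. The upper limit for groups 9 to 13, which act in the caudal trunk, limbs and urogenital tract, was 19.4%. The lower limits for the anterior and middle groups were below this value. These intervals hold counting error only, and a difference between the positions was not tested.

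The span of a cluster was taken from the first to the last base of its Hox genes, and every summit inside was placed. The 4 spans measured 491.8 kb together and held 6 summits, among them those of Hoxa4, Hoxa7 and Hoxd1 and the one near Hoxc6. This is 1.22 summits per 100 kb, compared with 0.89 over the genome, but 0.15 per Hox gene, compared with 1.1 summits per protein-coding gene over the genome. The Hoxa span (chromosome 6, 105.3 kb) held 4 summits. The Hoxc span (chr15:102921103-103036852, 115.8 kb) and the Hoxd span (chr2:74668310-74765142, 96.8 kb) held 1 each. The Hoxb span (chr11:96194316-96368256) held 0 summits in 173.9 kb.

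**Figure D2:**
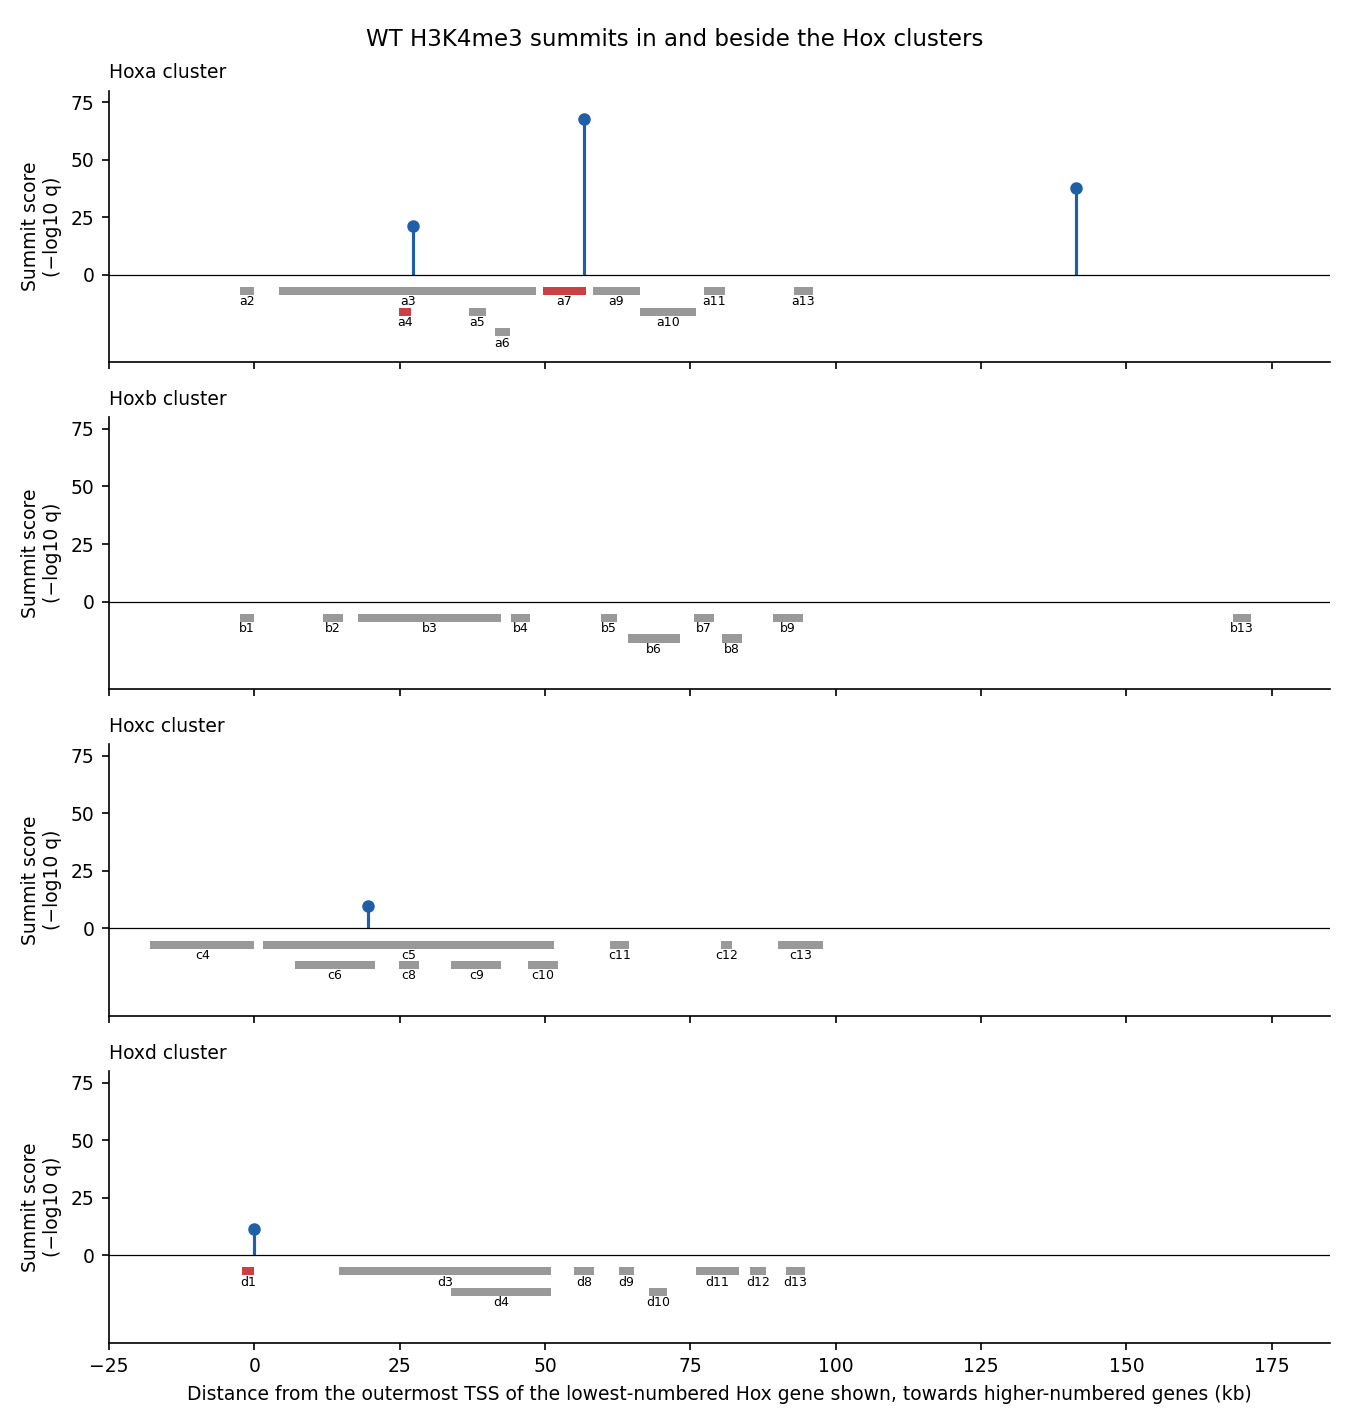
Summits (blue, height is the score in −log10 q) in and beside each Hox cluster, drawn by distance in kb from the outermost TSS of the lowest-numbered Hox gene shown, with the 3′ end of the Hoxa cluster left out. Bars below the axis are the Hox genes, red with a promoter summit and grey without, and the Hoxb panel holds no summit at all.

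The distance from an unmarked gene to the nearest summit showed how far the unmarked stretches reached. Over the 35 unmarked genes the median distance was 57.95 kb, from 1.07 kb at Hoxc6 to 165.54 kb at Hoxb6, and 24 of them had no summit within 20 kb. The marked and unmarked Hoxa genes together had a median distance of 7.25 kb, and the farthest, Hoxa13, lay 39.21 kb from the Hoxa7 summit. The Hoxb genes had the longest distances, with a median of 146.64 kb and a shortest distance of 69.7 kb at Hoxb13. For Hoxc the median was 22.43 kb, up to 78.36 kb at Hoxc13. For Hoxd it was 65.37 kb, up to 89.72 kb at Hoxd13. Of all protein-coding genes, 25.5% had no summit within 20 kb, and of the Hox genes 61.5%.

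The genes beside the clusters were marked on some sides. Next to Hoxa, Skap2, an adaptor protein of immune cells, had a score of 161.6, while the homeobox gene Evx1 had no promoter summit. The summit nearest to Evx1, of score 37.7, lay 7303 bp upstream of it. On the Skap2 side, the first summit outside the Hoxa span lay 91.2 kb away and scored 4.2. Next to Hoxb, Ttll6 had no promoter summit and Skap1 had one of score 10.1. The summits that enclose the Hoxb cluster, of scores 17.3 and 10.1, were 340.1 kb apart. Beside Hoxc, Calcoco1 (211.5) and Smug1 (231.3), a DNA glycosylase gene, were strongly marked but lay 198.9 and 116.4 kb away. The summits that enclose the Hoxc span were weaker. They scored 99.4 on the Calcoco1 side, at 123.4 kb, and 21.7 on the Smug1 side, at 110.3 kb. On the Hoxd1 side of the Hoxd cluster, the mitochondrial import gene Mtx2 scored 247.6, whereas Evx2, which starts next to Hoxd13, had no summit. The nearest summit beyond Evx2 lay 89.72 kb from Hoxd13 and scored 218.4.

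Noncoding genes of the clusters were counted as well, and a difference from the genome shares was not tested. Of 18 long noncoding RNA genes in the spans, 2 carried a summit at most 1 kb from a TSS, Haglr among them, beside 23.2% of the 10155 long noncoding RNA genes of the genome. Hotair, in the Hoxc cluster, had its nearest summit 51.73 kb away. Of 23 small RNA genes, 1 had a summit, a share near the 6.92% over the genome. The Hox microRNAs Mir10a (147.55 kb), Mir196a-1 (140.55 kb), Mir196a-2 (26.11 kb), Mir196b (8.57 kb) and Mir615 (15.45 kb) had no summit near them at the distances given. The 3 other protein-coding genes annotated in the spans, Gm28308, 5730596B20Rik and Gm28230, had no promoter summit.

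CpG content was then compared, because H3K4me3 follows CpG-rich promoters over the genome and the choice of Hox genes did not use it. CpG content is given as the ratio of observed to expected CpG over the 500 bp on each side of a TSS. This TSS was not the outermost one for every gene. A TSS chosen by its summit can by itself widen the difference between marked and unmarked genes. With the outermost TSS for every gene the Hox median was again 0.68. The medians of marked and unmarked genes and the genome shares were not repeated in this way. Hox promoters had a median of 0.68, above the median of all protein-coding genes (0.59) and close to that of marked genes (0.72), while unmarked genes of the genome had a median of 0.18. The 4 marked Hox genes had a median of 0.75, from 0.64 at Hoxa7 to 0.92 at Hoxa4. The 35 unmarked Hox genes had a median of 0.65, from 0.18 at Hoxb2 to 1.0 at Hoxa5. The groups overlapped widely, since 19 unmarked Hox genes had at least the CpG content of Hoxa7, the lowest of the marked ones, and 12 had at least the median of all marked genes. GC content had a median of 65.0% in marked and 55.9% in unmarked Hox promoters.

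Most genes with the CpG content of Hox promoters were marked. Of the 5491 protein-coding genes with a value between the Hox quartiles (0.58 to 0.77), 5183 had a promoter summit, or 94.4%. Of the 19 Hox genes in the same range, 2 had one. Unmarked CpG-rich promoters were not particular to the Hox genes. At a CpG content of at least 0.5, 4 of 32 Hox genes and 11920 of 12570 protein-coding genes were marked. In the same range, 37 of 73 developmental homeobox and Pax genes outside the clusters were marked. The counts were 2 of 7 for ParaHox and Evx genes and 16 of 19 for forebrain homeobox genes. The shares by CpG content were not repeated with the outermost TSS for every gene. In the range from 0.7 to 0.8, 96.2% of genes were marked and 0 of 9 Hox genes. In the range from 0.9 to 1.0, 95.9% of genes were marked and 1 of 4 Hox genes. The Hoxd promoters, with a median of 0.72, and the Hoxa promoters, with 0.69, were the richest, followed by Hoxc with 0.65 and Hoxb with 0.47. Some unmarked Hoxb genes had a low CpG content, such as Hoxb2 (0.18) and Hoxb3 (0.33), but Hoxb5 (0.79), Hoxb7 (0.83), Hoxb8 (0.74) and Hoxb9 (0.8) were unmarked too.

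**Figure D3:**
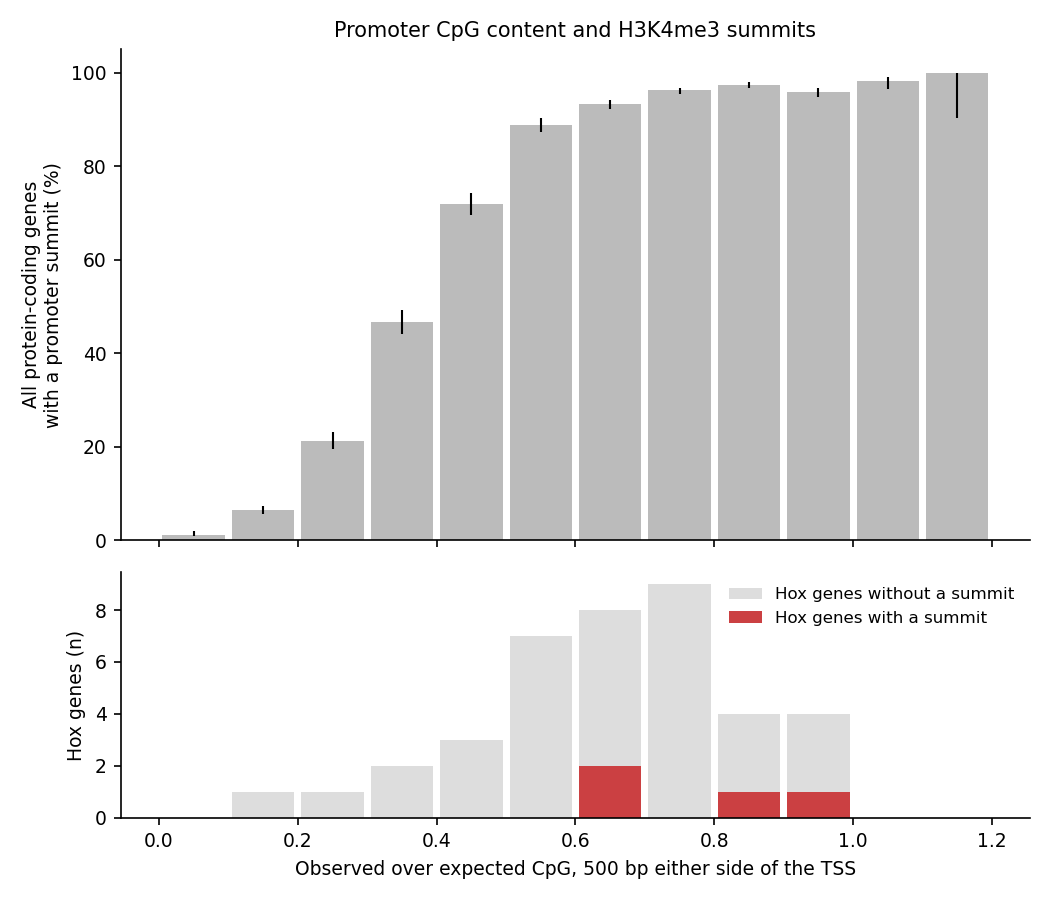
Upper panel, share of all protein-coding genes with a promoter summit (y axis, %, bars with 95% Wilson intervals) by observed over expected CpG around the TSS (x axis), and lower panel, number of Hox genes in the same bins, red with and light grey without a summit. The share in all genes reaches 96.2% in the bin from 0.7 to 0.8, where 0 of 9 Hox genes were marked.

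CpG-rich regions of the spans, at a TSS or not, were also mostly without summits. They were taken as merged 500 bp windows with at least 55% GC and observed over expected CpG of at least 0.65. They made up 15.8% of the 4 spans, compared with 0.7% of the genome, and the spans held 81 of them. A summit lay within 1 kb of 4 of the 81, or 4.94%, beside 71.6% of the 18538 regions of the genome. Of these, 3 of 27 regions were in the Hoxa cluster and 1 of 19 in the Hoxd cluster, whereas 0 of 20 regions in Hoxb and 0 of 15 in Hoxc had a summit.

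Short sequence motifs were found at shares near those of all promoters. In the 300 bases from 250 before to 50 after the TSS, on either strand, the homeodomain core TAATTA was found in 2 of 39 Hox promoters (5.1%) and in 5.3% of all promoters. The TATA box sequence TATAAA was found in 6 Hox promoters (15.4%) and in 12.6% of all promoters. Neither motif was found in the 4 marked Hox promoters. A match is a description of the sequence alone.

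Other gene groups place the Hox genes. Developmental homeobox and Pax genes outside the Hox clusters were marked in 40 of 91 cases, or 44.0% (interval 34.2 to 54.2%). The share of the Hox genes was 10.3% (4.1 to 23.6%). These intervals hold counting error only, and a difference was not tested. The 40 marked homeobox and Pax genes had a median best score of 22.0, below the Hox median of 42.9. Their scores went from 2.96 at Alx1 to 138.28 at Six4. Unmarked examples were Pax3, En1, Lhx4, Prrx1 and Lmx1a, regulators of the neural crest, midbrain, motor neurons and limb. Of these, Prrx1 had a summit of score 109.0 just outside the window, at 1.1 kb. The nearest summits of the others lay from 6.7 kb (Pax3) to 261.63 kb (En1) away. Within 3 kb of a TSS, 46 of these 91 genes had a summit, compared with 5 of the 39 Hox genes. The ParaHox and Evx genes are relatives of the Hox genes outside or beside the clusters. Of these, 2 of 8 were marked (interval 7.1 to 59.1%, overlapping that of the Hox genes), Gsx2 at 20.57 and Gsx1 at 12.92. Evx1, Evx2, Pdx1, Cdx1 and Cdx2, genes of the posterior embryo, the gut and spinal interneurons, were among those with none. Homeobox genes of the forebrain were marked in 17 of 20 cases, or 85.0%, with a median of 88.7, from Otx2 (16.38) to Cux1 (196.5). The unmarked ones, Pou3f2, Dlx5 and Six3, had summits 1.32, 1.92 and 1.26 kb away, so that all 20 had a summit within 3 kb. These summits scored 159.5 at Pou3f2 and 176.7 at Dlx5, but 3.6 at Six3.

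Partners and regulators of Hox genes were looked up as well. The TALE homeodomain proteins, which bind DNA together with Hox proteins, had summits at 9 of 9 genes with a median of 192.8, from Pknox1 (124.69) to Pknox2 (224.72). Genes of the Polycomb repressive complexes had summits in 18 of 19 cases with a median of 185.4, from Phf19 (44.67) to Aebp2 (241.87). KMT2A and its partners had summits at 8 of 8 genes with a median of 198.2, from Psip1 (179.83) to Dpy30 (241.87), with Kmt2a itself at 215.26. Genes of retinoic acid signalling, which induces anterior Hox genes in the embryo, were marked in 11 of 17 cases, or 64.7%, the same share as all protein-coding genes (64.7%), from Crabp1 (5.68) to the receptor gene Rxrb (180.55). Among those without a promoter summit were Rdh10, Crabp2, Stra6 and Aldh1a1, which make, carry or take up retinoids. Rdh10 had a summit of score 240.0 at 1.85 kb, whereas the nearest summits of Crabp2, Stra6 and Aldh1a1 lay 8.74, 11.47 and 43.79 kb away. Within 3 kb of a TSS, 13 of the 17 genes had a summit, or 76.5%, compared with 67.1% of all protein-coding genes.

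**Figure D4:**
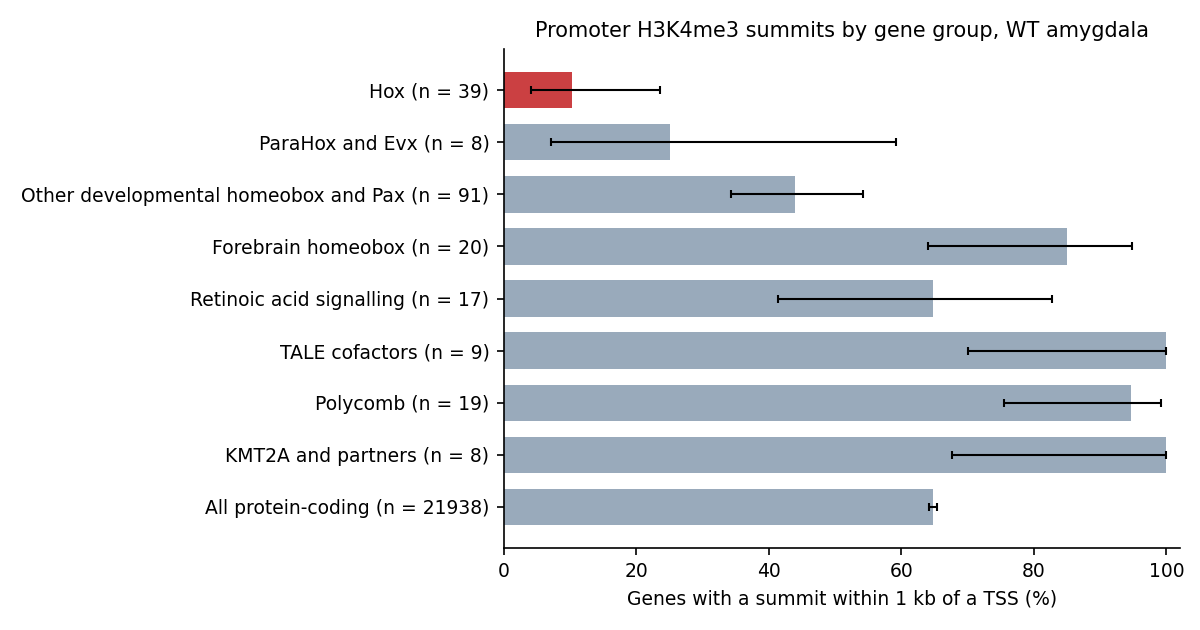
Share of genes with a summit within 1 kb of a TSS (x axis, %) for Hox genes (red), related gene groups and all protein-coding genes, with 95% Wilson intervals and the number of genes beside each name. Hox genes have the lowest share of the groups drawn, 10.3%, and the TALE cofactors and KMT2A with its partners have summits at every gene.

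The labelled tissue was checked with marker genes. Neuronal and forebrain markers had a promoter summit in 8 of 10 cases with a median score of 209.3, and Neurod6, which had none, had a summit 1.12 kb away. Astrocyte markers had one in 6 of 6 cases and oligodendrocyte markers in 6 of 8. Regulators of the hindbrain and spinal cord, where Hox genes are active in the embryo, had one in 2 of 8 cases, with Egr2 at 89.42 and Isl1 at 79.59. Endothelial and mural markers had one in 8 of 9 cases with a median of 32.4, fibroblast and meningeal markers in 4 of 5 with a median of 5.6, and blood and immune markers in 1 of 7. The part of vessel, meningeal and blood cells in the Hox summits was not tested.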

How the data were processed

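H3K4me3 chromatin immunoprecipitation was performed on amygdala nuclei. Reads had been mapped by the authors to mm10 (Bowtie, up to 2 mismatches, unique matches only), and their peak calls came from MACS2 2.1.0.20140616 with input as the control and a q-value below 0.1. The authors deposited the WT result as 1 list for both mice with a score per summit, taken to be the −log10 q-value since the list names no scale. Of 24162 summits, 24139 lay on chromosomes 1 to 19, X and Y and were used. The list does not give the depth behind a score or the width of a peak, so a summit of a wide peak can lie over 1 kb from the TSS. Unmatched per-sample columns numbered 0.

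TSSs came from GENCODE M21 and sequence from GRCm38.p6. The best summit within 1 kb of any of the 83 Hox TSSs was taken, from 1 to 6 TSSs per gene. Genes named were all Hox genes, and per list the highest- and lowest-scoring gene and up to 5 genes without a summit. Values of some genes and 1 sequence are not reported here. Kmt2a, Hotair and the Hox microRNAs were added after their values were seen. Members and lists were chosen with earlier results of these data known. CpG-rich regions, gaps and runs of genes were added after the summits were seen. Of 92 listed other homeobox genes, 91 were matched. Scripts were tested on simulated data. Python 3.11.15, numpy 2.4.6, pandas 2.3.3, scipy 1.17.1 and matplotlib 3.10.9 were used.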

Additional observations from a re-analysis of the deposited data

How the results depend on the processing

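The count of 4 marked Hox genes was 4 with a window of 500 bp, with protein-coding transcripts or the outermost TSS alone, with each summit given to its nearest gene and with scores of at least 10, and 5 with a window of 3 kb. With the 3 kb window, which adds the weak summit of Hoxc6, the median best score of Hox genes was 21.2. Keeping the summits that scored 102.3 (the list's median) or more, 0 Hox genes had a promoter summit and 0 summits lay in the 4 spans, while 52.0% of all protein-coding genes were still marked. Over the other alternatives the share of all genes went from 57.1% (500 bp) to 67.1% (3 kb). The spans held 4 to 6 summits under joining within 1 kb, a score of at least 10 or 20 kb of added flank, and the median CpG content was 0.72 with 250 bp either side of the TSS. No paired analysis was possible because the WT mice were deposited as 1 list, and leaving out a replicate could not be run for the same reason.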

Other observations

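The Hox clusters stood out among stretches without summits by how many CpG-rich regions they held. Between adjacent summits of the same chromosome there were 24118 gaps, with a median of 1 CpG-rich region each. The gap that holds the Hoxb cluster and the gap from the Hoxd1 summit across the other Hoxd genes and Evx2 held 22 CpG-rich regions each, tied at rank 4 of all gaps. The gap from Hoxa7 to the summit near Evx1 held 13 (rank 11), and a gap of the Hoxc cluster held 11 (rank 14). By length the Hoxb gap, at 340.1 kb, ranked 1539.

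Consecutive protein-coding genes without a promoter summit formed 3001 runs, of which 398 had a median promoter CpG content of at least 0.5. Among these 398, the longest, from Gm13271 to Ifne in the interferon cluster, counted 21 genes. The next were the run from Evx2 to Gm28230 with 10 genes, 8 of them Hoxd genes, and the run of the 9 Hoxc genes. A run of 12 genes from Calcoco2 to Hoxb1 held the 10 Hoxb genes, with a median CpG content of 0.44. These ranks describe 1 list and were not tested.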
